A study of Homo sapiens with 2 samples.

Results

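The human genome holds many copies of the small cytoplasmic and nuclear RNAs 7SL, 7SK and Y besides the few genes known to make these RNAs. The dispersed copies were taken as every feature of the class misc_RNA in the count tables, leaving out the parent genes by name. They were 2021 of the 2032 misc_RNA features and of 741078 features in all: 844 copies of 7SL, 294 of 7SK, 855 of Y RNA, and 28 others. Of the Y copies, 803 carry only the name Y_RNA and 52 a pseudogene number, so Y copies are told apart here by gene ID and by the gene around them. The 28 others were 13 features named Metazoa_SRP, 4 named Vault, 7 pseudogenes of RMRP or RPPH1, 2 ribozyme features, NRON and KLHL22-IT1. The copies of each of the 3 families lie on 24 chromosomes.

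RNA bound to hTrmt13 (TRMT13), a tRNA 2'-O-methyltransferase, was recovered by CLIP-seq, in which a protein is isolated with an antibody together with RNA crosslinked to it and that RNA is sequenced. The cells were MDA-MB-231, an established line of human breast carcinoma. There was 1 group with 2 replicates and no treatment or genotype contrast, and the RNA had been treated with AlkB-type enzymes that remove modifications. The series asked which tRNAs the enzyme binds. With 0 input or antibody control libraries, a share of counts is not an enrichment, and the replicates may be technical, since no label says that they came from separate cultures.

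7SL RNA is the RNA of the signal recognition particle, which directs nascent secretory proteins to the endoplasmic reticulum. Its ends form the Alu domain and its middle the S domain, and the Alu repeats of the genome derive from it. 7SK RNA holds the elongation factor P-TEFb in an inactive complex in the nucleus. Y RNAs are short RNAs bound by the proteins Ro60 and La, with a stem formed by both ends and a loop between them. RNA polymerase III makes all of these RNAs, and retrotransposition scattered copies of them over the genome.

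Sequences are shown for 2 of the Y copies with the most counts beside their closest parent, RNY1, and for the 2 highest copies of 7SK, since many of the results below turn on how much of the parent a copy keeps. They are from GENCODE release 29 (GRCh38), matched by gene ID, read 5′ to 3′ on the strand of the feature, and positions are counted from 1 at the 5′ end. In RNY1, capitals mark the 20-base window that, among the windows of RNY1 and where copies hold it unaltered, went with the largest share of Y counts. In the Y copies they mark the longest stretch shared with that window.
RNY1: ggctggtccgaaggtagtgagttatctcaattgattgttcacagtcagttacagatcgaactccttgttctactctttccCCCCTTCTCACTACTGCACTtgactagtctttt
Y copy within BCAS3: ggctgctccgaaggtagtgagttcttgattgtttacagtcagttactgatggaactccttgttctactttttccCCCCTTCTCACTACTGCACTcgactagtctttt
Y copy on chromosome 6: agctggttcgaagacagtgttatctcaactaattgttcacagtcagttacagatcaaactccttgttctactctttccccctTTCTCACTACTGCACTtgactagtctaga
The copy within BCAS3 holds the 20 bases of the window without a change, and the copy on chromosome 6 holds 16 of them in a row. In the copies of 7SK, capitals mark the longest run identical to RN7SK, and RN7SKP118 is shown from base 1 to base 300.
RN7SKP118: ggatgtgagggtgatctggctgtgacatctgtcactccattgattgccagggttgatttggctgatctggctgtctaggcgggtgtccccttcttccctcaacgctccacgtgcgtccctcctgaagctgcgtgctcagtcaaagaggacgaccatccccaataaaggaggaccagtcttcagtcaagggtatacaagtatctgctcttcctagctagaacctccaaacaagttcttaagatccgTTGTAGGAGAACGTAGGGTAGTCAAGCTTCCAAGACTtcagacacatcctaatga
RN7SKP80: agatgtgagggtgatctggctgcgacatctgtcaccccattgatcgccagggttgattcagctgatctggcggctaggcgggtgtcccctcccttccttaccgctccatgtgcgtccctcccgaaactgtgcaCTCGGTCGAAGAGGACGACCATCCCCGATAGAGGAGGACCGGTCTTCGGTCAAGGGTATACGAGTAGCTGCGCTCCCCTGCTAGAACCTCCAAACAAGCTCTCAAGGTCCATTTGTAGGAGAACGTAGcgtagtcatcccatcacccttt
RN7SKP80 keeps 128 bases of RN7SK in a row and RN7SKP118 only 37, although 90.2% of RN7SK positions are matched in RN7SKP118 and 82.0% in RN7SKP80. Among 7SL copies, RN7SL5P keeps a run of 209 bases of RN7SL1 and RN7SL4P a run of 192 bases of RN7SL2. RN7SL5P spans 288 bases in the count tables (hg19) and 321 in the GENCODE sequence.

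For the first read mates (R1), the tables summed to 27907799 counts for replicate 1 and to 20590398 for replicate 2. For the second mates (R2) the sums were 11246823 and 8793089. Values are R1 counts unless stated, and CPM are counts scaled to the total of the same table. Of 6 markers of mesenchymal breast carcinoma cells, 5 had a count, led by VIM with 382 and 722, and S100A6 was at 0 in both libraries. Their sum was 15.2 and 37.5 CPM in replicates 1 and 2, against 3.80 and 8.50 CPM for 6 epithelial markers, all with a count. VIM alone gave 13.7 and 35.1 CPM of it. No other marker of its list exceeded 0.573 CPM in replicate 1 or 1.41 CPM in replicate 2. The epithelial marker CDH1 had 1.43 and 2.48 CPM, so the lead of the mesenchymal sum rested on VIM. Of 4 markers of other cell types 3 had a count, and ALB was at 0. The sum of this list was 1.36 and 3.55 CPM, led by RBFOX3 with 0.860 and 2.62 CPM. RBFOX3 was thus above every mesenchymal marker except VIM in both libraries. These are counts of bound RNA, so they do not measure expression.

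Copies of Y RNA were recovered most, followed by 7SK and 7SL. Y copies took 14818 counts in replicate 1 and 10477 in replicate 2, or 0.0520% ± 0.00157 of the library (SD, n = 2). Copies of 7SK took 6431 and 6087 counts, or 0.0263% ± 0.00461 (SD, n = 2). Copies of 7SL took 1596 and 3990 counts, or 0.0125% ± 0.00966 (SD, n = 2). The Y share was close in both libraries, although the exact Clopper-Pearson 95% intervals, 0.0522 to 0.0540% in replicate 1 and 0.0499 to 0.0519% in replicate 2, did not overlap. The 7SL share differed far beyond counting error, at 0.00572% (0.00544 to 0.00601%) in replicate 1 and 0.0194% (0.0188 to 0.0200%) in replicate 2. The 28 others held 17 and 44 counts. The 13 Metazoa_SRP features among them held 14 and 40, led by copies within LARP1 (3 and 12), ZBTB44 (5 and 9), TRPM3 (1 and 6), RP11-652L8.2 (0 and 5) and PLCH1 (2 and 3).

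Set against their own parents, Y copies together outweighed the parent genes, 7SK copies about equalled RN7SK, and 7SL copies were a small part. Y copies held 77.2% of the counts of copies plus the 4 Y genes in replicate 1 and 76.1% in replicate 2. The corresponding share was 56.4% and 46.6% for 7SK copies and 12.0% and 13.3% for 7SL copies. RNY1 alone had 3496 and 2668 counts, RNY5 558 and 372, RNY3 253 and 197, and RNY4 76 and 49. RNY3 was low among the parents, while its copies carried most of the counts of Y copies, as given below. RN7SK had 4975 and 6977 counts, RN7SL2 5731 and 13457, RN7SL1 5406 and 11462, and RN7SL3 534 and 1046.

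**Figure D1:**
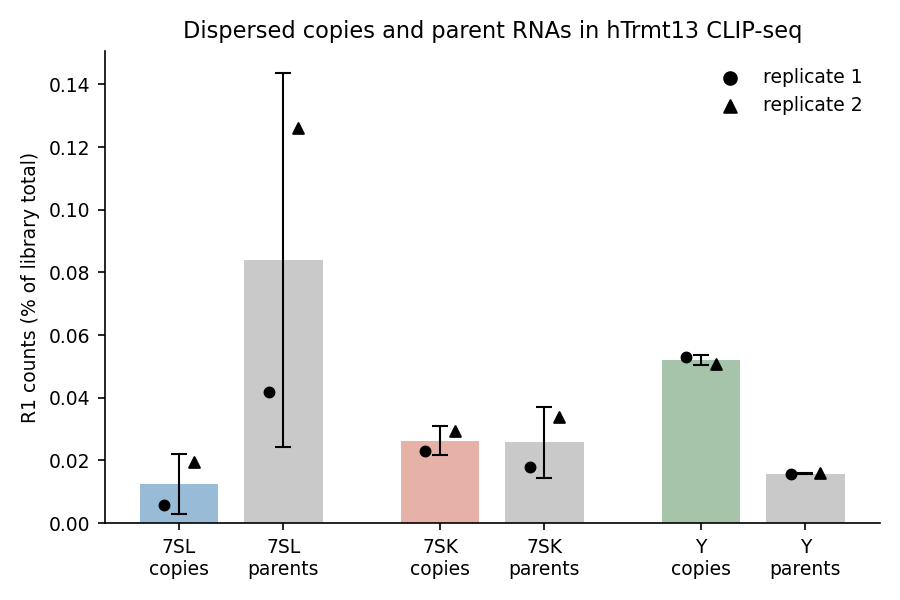
R1 counts as a percent of the library total for the dispersed copies (coloured) and the parent genes (grey) of each family; bars are means, whiskers the SD over 2 replicates, and symbols the single libraries. Y copies took 0.0531% and 0.0509% of the libraries, above their parents in both, while 7SL copies lay below theirs in both.

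Most copies had few or no counts. An R1 count in at least 1 library was found for 459 of 844 7SL copies, 179 of 294 7SK copies, 566 of 855 Y copies and 13 of the 28 others, 1217 in all. The remaining 804 had none, and 666 had none in any of the 4 tables. A count of 0 allows up to 3 counts, or 0.107 CPM in replicate 1 and 0.146 CPM in replicate 2, for counting error only. A mean of at least 10 counts was reached by 38 copies of 7SL, 46 of 7SK, 187 of Y and 0 of the others. The ranking of copies was stable for Y and less so for 7SL. Between the libraries, Spearman's rho across copies with a mean of at least 1 was 0.881 for Y (n = 448), 0.697 for 7SK (n = 156) and 0.453 for 7SL (n = 342). Copies within a family share sequence and libraries, so these are descriptions.

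The counts of 7SK copies were concentrated in a few places and those of Y copies were spread out. In each library 2 copies held more than 50% of the 7SK counts, whereas 30 and 32 copies were needed for Y and 5 and 10 for 7SL in replicates 1 and 2. The 10 highest copies held 82.9% and 79.7% of the 7SK counts, 57.5% and 50.5% of the 7SL counts and 29.9% and 29.2% of the Y counts.

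RN7SKP118 had the most counts of any copy in both libraries. It lies on hg19 at chr16:67355561-67355890, minus strand, within KCTD19 on the same strand. GENCODE release 29 puts it in an exon, but the gene of that exon and its strand were not recorded. RN7SKP118 had 3038 and 2862 counts in replicates 1 and 2, 47.2% and 47.0% of all 7SK counts, and 376 ± 64.6 CPM per kilobase (SD, n = 2). Its parent RN7SK had 781 ± 343 CPM per kilobase. Per kilobase the mean of RN7SKP118 was above that of the highest Y copy, which lies within BCAS3 and had 340 ± 17.2. The ranges of mean ± SD overlapped, which with n = 2 does not decide whether they differ. RN7SKP80 (chr22:42961054-42961336, minus strand, within SERHL2 on the other strand) had 570 and 465 counts. RN7SKP79 (chr5:6848240-6848575, minus strand) had 570 and 403, and RN7SKP203 (chr2:76672205-76672536, minus strand, in no other listed gene) had 472 and 380. The next copy, RN7SKP160 on chromosome 1, had 160 and 143. The 3 copies from RN7SKP80 to RN7SKP203 lay close together, at 76.0 ± 5.39, 59.5 ± 1.79 and 53.3 ± 3.28 CPM per kilobase (SD, n = 2 each), and RN7SKP79 and RN7SKP203 differed by more than either SD.

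Among Y copies, the 10 highest lay between 82.0 and 340 CPM per kilobase. The copy within BCAS3 (ENSG00000252534.1, chr17:58826301-58826407, minus strand) led with 979 and 776 counts in replicates 1 and 2, or 340 ± 17.2 CPM per kilobase (SD, n = 2). RNY1, its closest parent, had 1128 ± 26.9 CPM per kilobase. It was followed by 4 copies whose ranges of mean ± SD overlapped. The copy within KCNK4 (ENSG00000207024.1, chr11:64063509-64063610, plus strand) had 470 and 393 counts, or 176 ± 15.6 CPM per kilobase (SD, n = 2). The copy on chromosome X (ENSG00000238426.1, chrX:41175741-41175842, plus strand) had 522 and 337 counts, or 172 ± 16.2 CPM per kilobase (SD, n = 2). The copy within FOXN3 (ENSG00000252522.1) had 510 and 316 counts, and the copy on chromosome 9 (ENSG00000199635.1, chr9:21160234-21160335, minus strand) had 504 and 292. All 4 exceeded RNY3 per kilobase, which stood at 91.3 ± 3.48 CPM per kilobase (SD, n = 2). The copy on chromosome 6 (ENSG00000199303.1, chr6:100090113-100090223, minus strand) had 427 and 266 counts. The other 4, within AIM1, on chromosome 14, within CCDC85C and within PPHLN1, had 241 to 278 counts in replicate 1 and 160 to 177 in replicate 2.

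Among 7SL copies, RN7SL5P and RN7SL4P led and no other copy came near them. RN7SL5P (chr9:9442060-9442347, plus strand, within PTPRD on the other strand) had 410 and 804 counts in replicates 1 and 2, or 93.3 ± 59.8 CPM per kilobase (SD, n = 2). RN7SL4P (chr3:15780022-15780315, plus strand, within ANKRD28 on the other strand) had 277 and 489 counts, or 57.3 ± 33.2 CPM per kilobase (SD, n = 2). RN7SL5P was the higher of the pair in both libraries, while their ranges of mean ± SD overlapped. RN7SL508P within SRRM4 had 53 and 182 counts, RN7SL521P within ZNF425 36 and 185, and RN7SL128P within E2F3 44 and 66. RN7SL515P within VWA8 had 11 and 80, RN7SL166P within PSPC1 15 and 63, and RN7SL233P within MIB1 21 and 55. In counts, all 8 were higher in replicate 2, although that library was the smaller one. Most features shared this direction: by CPM, 17960 of the 18723 features with a mean of at least 10 counts were higher in replicate 2.

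**Figure D2:**
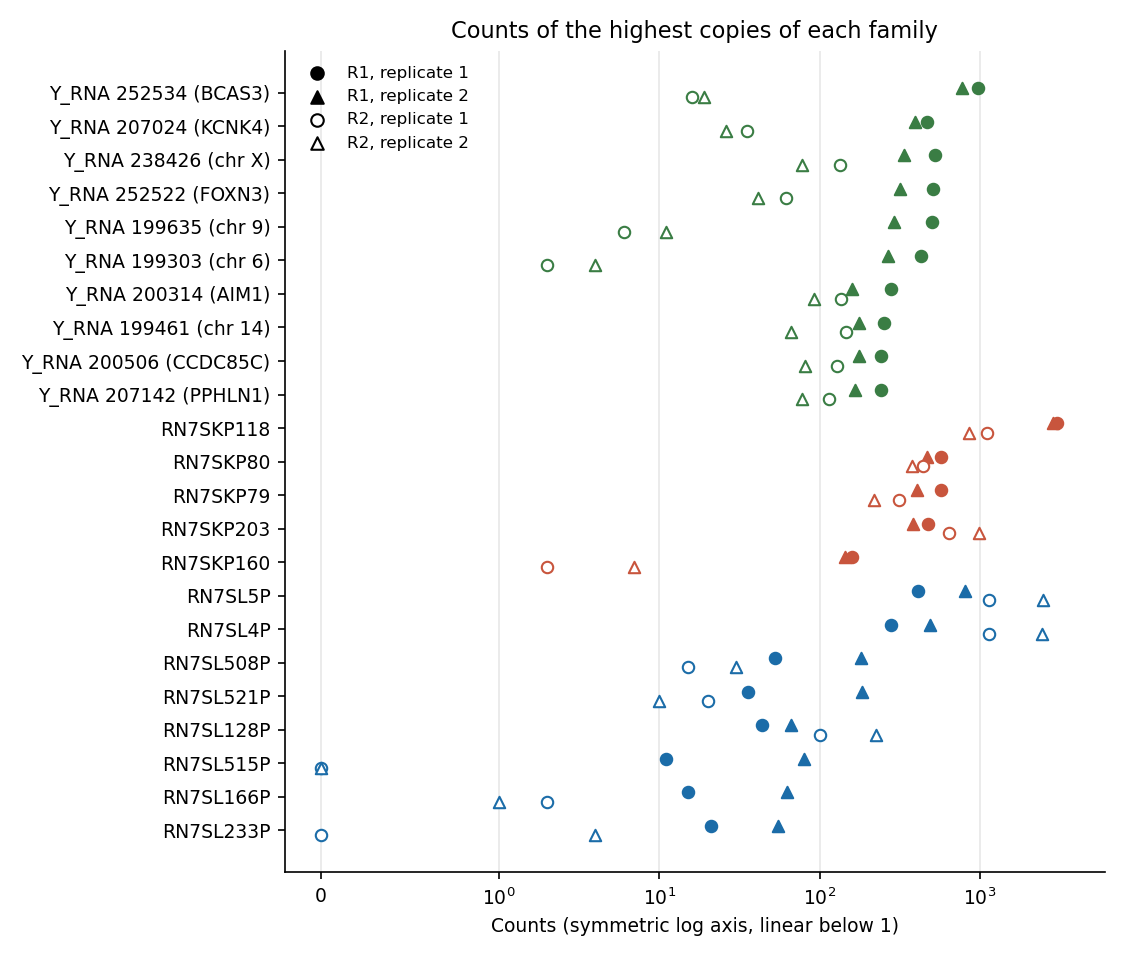
Counts of the 10 highest Y, 5 highest 7SK and 8 highest 7SL copies in the 4 tables on a symmetric log axis; filled symbols are R1 and open symbols R2, circles replicate 1 and triangles replicate 2, and each Y copy carries the last 6 digits of its gene ID with the gene around it or its chromosome. In R1, the triangle lies right of the circle for the 8 copies of 7SL and left of it for the 15 copies of Y and 7SK, and R2 is far below R1 for the Y copies within BCAS3 (16 and 19 R2 counts), on chromosome 9 and on chromosome 6.

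Copies closer to their parent in sequence had more counts. A sequence was matched by gene ID for 592 copies of 7SL, 288 of 7SK and 775 of Y, which held 91.2% and 91.2% of the 7SL counts, 99.3% and 99.2% of the 7SK counts and 89.7% and 90.2% of the Y counts in replicates 1 and 2. RNY5 was not among the sequences used, so Y copies were compared with RNY1, RNY3 and RNY4 only. The median identity to the closest parent, as a percent of the parent's length, was 80.3% for 7SL copies, 74.9% for 7SK copies and 86.7% for Y copies. Copies were aligned only to parents of their own family, so these values do not test the family labels. The 16 copies of 7SK with at least 85% identity all had a count and together held 71.5% and 73.1% of the 7SK counts in replicates 1 and 2, while being 5.56% of the copies. Their median was 78.5 counts over both libraries, and without RN7SKP118 the other 15 held 45.6% and 49.0% of the remaining counts. Of the 94 copies of 7SK under 70%, 21 had a count. All 10 Y copies with at least 95% identity had a count, and their median over both libraries together was 185.5 counts. Of the 193 Y copies with 80 to 85% identity, 93 had a count and the median was 0. The 25 copies of 7SL with an identical run of at least 40 bases all had a count and held 56.5% and 45.6% of the 7SL counts. Most of that lay at RN7SL5P and RN7SL4P, and the other 23 held 17.6% and 15.6% of the remaining counts. How reads that match several places were counted is not given in the sources used here, so counts of a copy may include reads of its parent or of another copy, and their part was not tested.

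Counts showed little relation to length. Spearman's rho between level and length was -0.00418 across Y copies (n = 448), 0.216 across 7SK copies (n = 156) and 0.0726 across 7SL copies (n = 342), as descriptions.

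Y copies closest to RNY3 led the family. They were 372 of the 775, or 48.0%, and held 71.2% and 69.7% of the counts in replicates 1 and 2. The 322 copies closest to RNY1 held 26.9% and 28.3%, and the 81 closest to RNY4 held 1.89% and 2.03%. The order was the same in both libraries, and the shares moved by less than 2 percentage points between them.

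Within the RNY3 sequence, bases 70 to 89, near its 3′ end, went with the highest counts. The window was picked from all 20-base windows because of its counts, so its share is a description. It was held unaltered by 53 of 775 Y copies, or 6.84%, and these held 50.3% and 48.6% of the counts in replicates 1 and 2. All 53 had counts, from 17 to 522 in replicate 1 and from 17 to 393 in replicate 2, with medians of 82.0 and 55.0. The 319 copies that were also closest to RNY3 but had a change in the window reached at most 130 and 72 counts, with medians of 2.00 and 1.00, and 237 of them had a count. The 53 copies were also closer to the parent as a whole, with a median identity of 91.2% against 87.3% for the 319. Whether the counts follow the window or the identity was not tested. By contrast, the 7 copies that kept the first 20 bases of RNY3 held 1.25% and 1.40% of the counts. The window kept by the most copies, bases 37 to 56, was held by 81 copies with 23.3% and 23.4% of the counts.

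A window at a like place near the 3′ end led for RNY1. Bases 81 to 100 were held unaltered by 25 copies, all with a count, which took 15.3% and 16.9% of the Y counts in replicates 1 and 2. Without the copy within BCAS3 the other 24 took 8.53% and 9.44% of the remaining counts. No copy held both windows. Together the 78 copies with either one made up 10.1% of the Y copies and 65.6% and 65.5% of the counts, and the 697 with neither had medians of 1.00 and 1.00.

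In 7SK, a single copy decided the 20-base window. RN7SK bases 305 to 324 were held by 5 copies, RN7SKP118, RN7SKP160, RN7SKP48, RN7SKP292 and RN7SKP187, with 50.9% and 52.6% of the 7SK counts, but without RN7SKP118 the others took 6.34% and 10.01% of the remaining counts. RN7SL1 bases 166 to 185, in the S domain, were held by 66 copies with 60.6% and 47.9% of the 7SL counts. Without RN7SL5P the other 65 took 45.1% and 33.1% of the remaining counts. RN7SL4P, with 277 and 489 counts, was among these, since its run over bases 11 to 202 of RN7SL2 spans the window. The share without both copies was not computed. For 7SK the place of the highest window and the number of copies behind it depended on the window length. With 15 bases it was bases 213 to 227 of RN7SK, held by 80 copies with 78.2% and 75.02% of the counts, and without RN7SKP118 the others took 58.4% and 52.5% of the remaining counts. With 25 bases it was bases 258 to 282, held by 3 copies with 48.4% and 50.2% of the counts, and without RN7SKP118 the others took 1.46% and 5.32%.

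**Figure D3:**
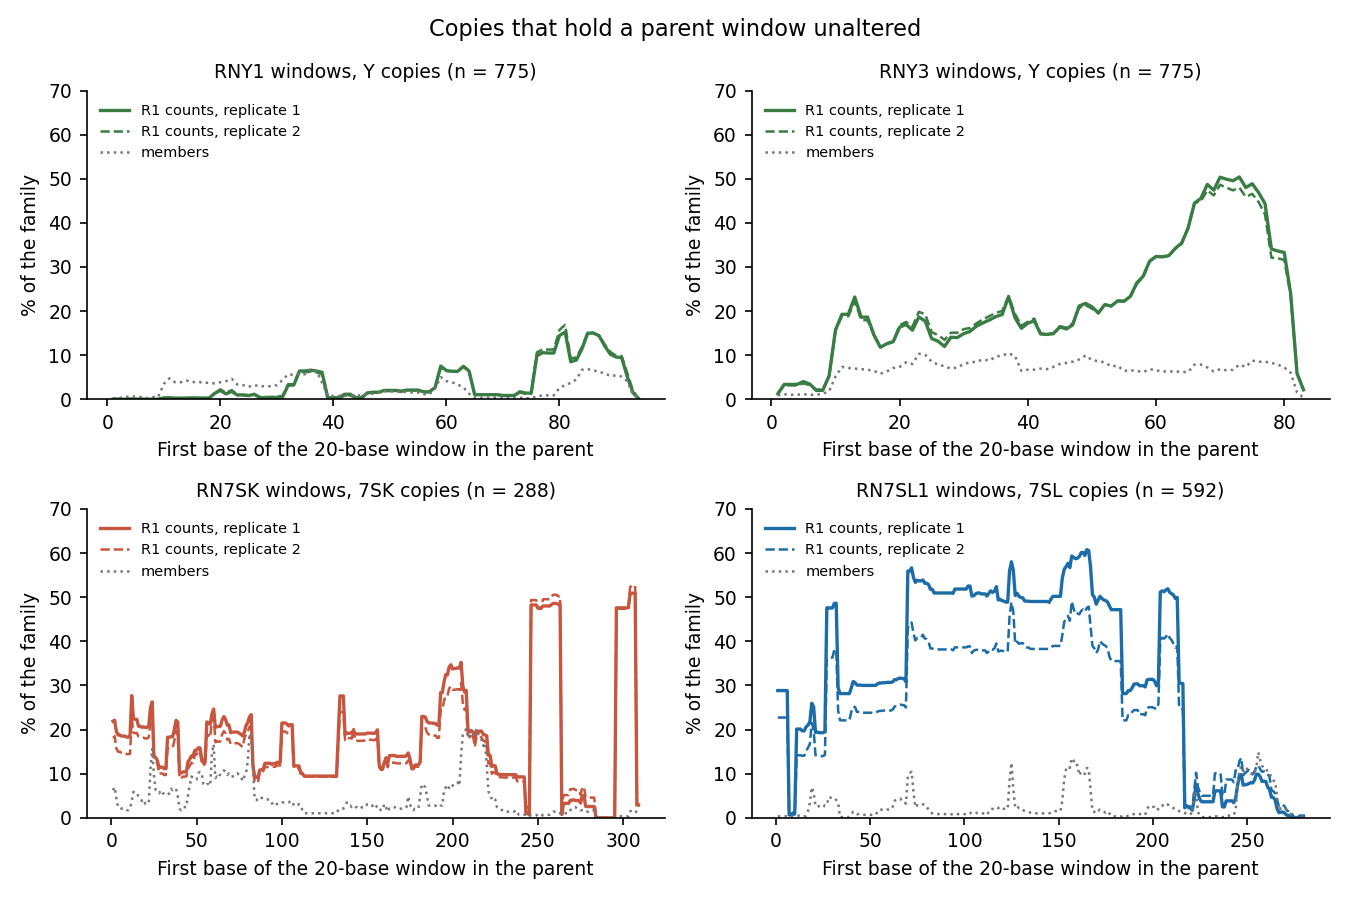
For each 20-base window along RNY1, RNY3, RN7SK and RN7SL1 (x axis, first base of the window), the percent of the family's R1 counts at copies that hold it unaltered (solid line replicate 1, dashed line replicate 2) and the percent of copies that do (dotted grey). Along RNY3 the lines of both libraries climb to about 50% at base 70 (50.3% and 48.6%) while the share of copies is 6.84%, and along RN7SK they reach 50.9% and 52.6% at base 305.

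The summed counts of the mates differed by family. R2 counts at 7SL copies were 187% of the R1 counts in replicate 1 and 161% in replicate 2. The value was 47.4% and 53.1% for 7SK copies and 29.8% and 27.3% for Y copies. For all features together it was 40.3% and 42.7%. The typical 7SL copy did not share the excess. Over copies with a mean of at least 10 counts, the median was 20.7% for 7SL, 21.5% for 7SK and 13.8% for Y. The excess at 7SL copies came from RN7SL5P and RN7SL4P. RN7SL5P had 1146 and 2471 R2 counts against 410 and 804 R1 counts, and RN7SL4P had 1144 and 2433 against 277 and 489. Together they held 76.7% and 76.3% of the R2 counts of 7SL copies, and without them R2 was 76.3% and 56.4% of R1. Their parents RN7SL1 and RN7SL2 had R2 at 87.0% and 83.7%, and at 38.5% and 35.5%, of R1, and RN7SL3 at 132% and 145%.

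The mates of 7SL copies were also set against the part of 7SL that a copy keeps. Among the 34 copies of 7SL with a sequence and a mean of at least 10 counts, 18 had their longest parental run starting at or before base 200, and R2 was 287% and 308% of R1 there (97.6% and 95.2% without RN7SL5P and RN7SL4P, and 51.2% and 51.2% without RN7SL128P as well). In the 16 whose run starts after base 200, in the 3′ part of 7SL, R2 was 33.2% and 14.4% of R1. RN7SL515P, whose run covers bases 239 to 266 of RN7SL2, had 0 and 0 R2 counts. RN7SL752P went the other way, with a run over bases 125 to 185, 6 and 40 R1 counts and 0 and 2 R2 counts. The difference thus rested largely on 3 copies. The boundary at base 200 was set after the values were seen.

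Many Y copies had almost no second mates. Of the 187 Y copies with a mean of at least 10 counts, 61 had R2 counts under 5% of R1 over both libraries, and the median was 13.8%. R2 was also under 5% of R1 for 5 of 38 copies of 7SL (RN7SL515P, RN7SL166P, RN7SL752P, RN7SL687P and RN7SL173P) and for 5 of 46 of 7SK (RN7SKP160, RN7SKP249, RN7SKP189, RN7SKP55 and RN7SKP85). The share of all features under this limit is not given here, so these counts are not set against a background. The copy within BCAS3 had 16 and 19 R2 counts against 979 and 776 R1 counts, and the copy on chromosome 6 had 2 and 4 against 427 and 266. The lowest were the copies within SH2D6 (ENSG00000207207.1), with 0 and 0 against 217 and 145, within RP11-736I24.5 (ENSG00000206846.1), with 0 and 1 against 214 and 132, and within CCDC65 (ENSG00000201678.1), with 0 and 1 against 121 and 95. Copies with the RNY1 window had R2 at 7.73% and 7.27% of R1, or 13.4% and 11.8% without the copy within BCAS3. Those with the RNY3 window had 33.5% and 31.4%. With 20-base windows the R2 counts of Y copies peaked at RNY3 bases 66 to 85, where 61 copies held 72.5% and 70.5% of them. With 15 bases both mates peaked at the same window, bases 71 to 85, so a shift between the mates depends on the window length. RNY1 itself had R2 at 28.9% and 26.6% of R1.

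At the other end, RN7SKP203 had 642 and 990 R2 counts against 472 and 380 R1 counts, the only one of the 5 highest 7SK copies with more R2 than R1. RN7SKP118 had R2 at 36.4% and 29.7% of R1, and RN7SKP160 had 2 and 7 R2 counts against 160 and 143 R1 counts.

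**Figure D4:**
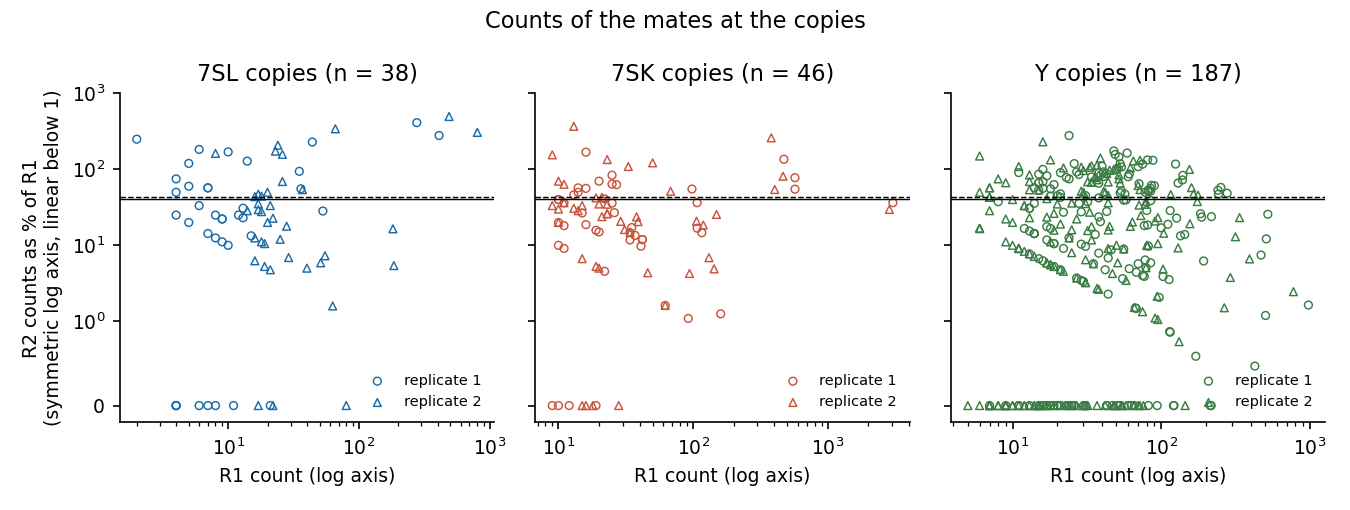
R2 counts as a percent of R1 counts (symmetric log y axis) against the R1 count (log x axis) for copies with a mean of at least 10 counts; circles are replicate 1, triangles replicate 2, and the horizontal lines mark the values of all features, 40.3% (solid) and 42.7% (dashed). Many Y copies lie on or near 0, and the 7SL copies with the most R1 counts lie above 100%.

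The libraries were compared feature by feature. An exact two-sided binomial test asked whether the R1 counts of a feature were split between the libraries as their scaled sizes predict, adjusted by Benjamini-Hochberg over the 18723 features with a mean of at least 10 counts. It compares 1 library with 1 other, not conditions, and it holds counting error only. With TMM scaling, 9 of 38 copies of 7SL were higher in replicate 2, against 2.29% of all features, and 1, RN7SL529P on chromosome 11 with 35 and 26 counts, was lower. Of 187 Y copies, 116 were lower in replicate 2, against 6.52% of all features, and 0 were higher. For 7SK copies, 14 of 46 were lower and 2 higher, RN7SKP48 with 27 and 131 counts and RN7SKP76 with 42 and 119. The median log2 ratio of replicate 2 over replicate 1 was 0.88 for 7SL copies, -0.77 for 7SK copies and -1.18 for Y copies, against -0.00 for all features. With scaling by total counts, which moves the median of all features by 1.09, the medians were 1.97 for 7SL copies, 0.32 for 7SK copies and -0.09 for Y copies, so the direction flips for 7SK copies. By total counts 5 Y copies were higher and 14 lower, and for all features the shares were 81.3% higher and 1.44% lower.

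The median of 7SL copies exceeded that of Y copies by 2.05 on the log2 scale and that of protein-coding genes by 0.86. Both scalings shift every feature by the same amount, so these gaps are the same under either by construction. In R2 the gap between 7SL and Y copies was 1.77. The median of Y copies minus that of tRNA features was -0.07, and both lay below protein-coding genes. The summed copies of 7SL lay above each of their parents, those of Y within the range of theirs, and those of 7SK below RN7SK. By total counts, the summed 7SL copies had a log2 ratio of 1.76 and the parents RN7SL1, RN7SL2 and RN7SL3 had 1.52, 1.67 and 1.41. The summed Y copies had -0.06 and RNY1, RNY3, RNY4 and RNY5 had 0.05, 0.08, -0.19 and -0.15. The summed 7SK copies had 0.36, and RN7SK had 0.93. In these sums the gap of 7SK copies to RN7SK was the widest of the 3 families, and it stayed without RN7SKP118, at 0.37 for the other 7SK copies. Without RN7SL5P and RN7SL4P the other 7SL copies had 2.01, further above their parents.

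**Figure D5:**
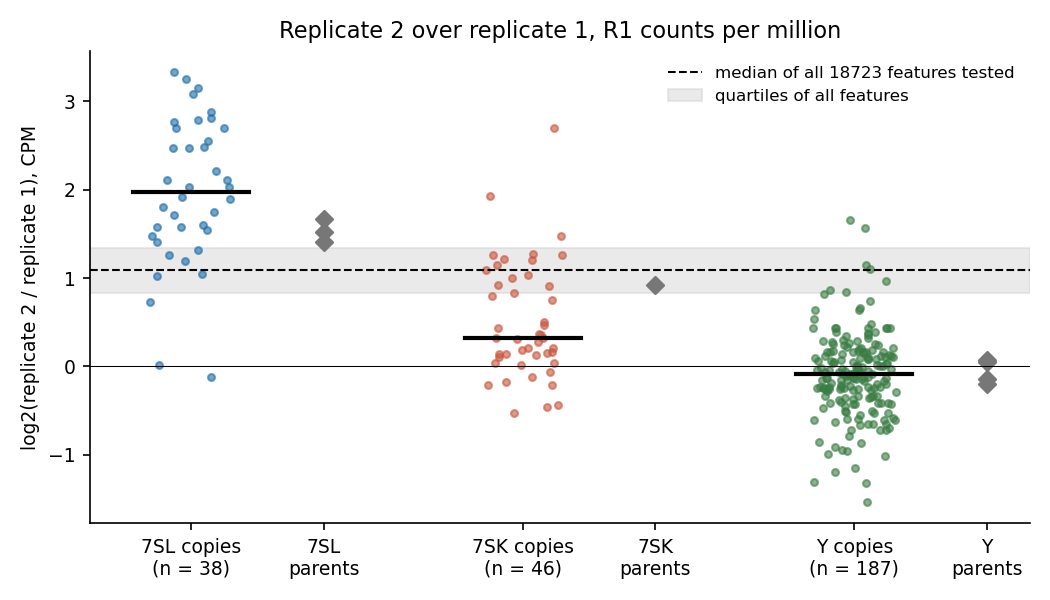
log2 ratio of replicate 2 over replicate 1 of R1 CPM for copies with a mean of at least 10 counts (points, with a bar at the median) and for the parent genes (grey diamonds); the dashed line and band are the median and quartiles of all 18723 features tested. Copies of 7SL lie highest, with a median of 1.97 above their parents at 1.41 to 1.67. Copies of Y lie around 0, with a median of -0.09 and parents from -0.19 to 0.08.

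The copies that differed most between the libraries were small ones. RN7SL515P, within VWA8, had 11 and 80 counts in replicates 1 and 2, a log2 ratio of 2.15 with TMM scaling (edgeR factors, adjusted exact binomial p = 8.33e-07). RN7SL610P, within UBXN2A, had 4 and 29, and RN7SL752P, within PLXND1, had 6 and 40, with log2 ratios of 2.06 and 1.99. In the other direction, the Y copy within MRPS14 (ENSG00000206659.1) had 35 and 10 counts, a log2 ratio of -2.41 (adjusted exact binomial p = 5.93e-06). Those within AC116366.4 (ENSG00000202533.1) and on chromosome 11 (ENSG00000200615.1) had 28 and 8, and 21 and 5. All 6 kept their direction and passed the test with scaling by total counts as well. Of the leading pair of 7SL copies, RN7SL5P passed with TMM scaling (log2 ratio 0.32, adjusted exact binomial p = 0.00461) and RN7SL4P missed it (0.17, adjusted p = 0.442), while both passed by total counts.

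Most copies lie inside other listed genes and share their counts with them. Leaving piRNA features aside, 1245 of 2021 overlapped another listed feature, and 0 overlapped a tRNA feature. Of the pairs of a gene and a copy inside it with a mean of at least 10 counts, the gene held at least the count of the copy in 99 of 99 on the same strand and in 89 of 89 on opposite strands. Reads of a copy were thus counted in the gene around it whichever strand that gene is on, and the strand of the reads cannot be told. Among 148 such pairs with a protein-coding gene, the copy's count was at the median 24.3% of the gene's and at least 50% in 41, of which 22 were on opposite strands. In 11 it was at least 90%.

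For some genes nearly every count was at the copy. KCNK4, a potassium channel gene, had 470 and 395 counts in replicates 1 and 2, and the Y copy in it 470 and 393. KCTD19 had 3055 and 2885, and RN7SKP118 in it 3038 and 2862. SH2D6 had 219 and 147, and its Y copy 217 and 145. PTPRD, a receptor tyrosine phosphatase gene, had 442 and 892, and RN7SL5P on the other strand 410 and 804. SRRM4, a splicing regulator of neurons, had 55 and 189, and RN7SL508P 53 and 182. The other 6 genes were RGL3, GALNT5, CDK15, GJA10, ANO9 and CDH8. In counts per base, Y copies lay at a median of 7.26 times the rest of the protein-coding gene around them (n = 484), 7SK copies at 5.96 times (n = 124) and 7SL copies at 0.784 times (n = 457). A copy of 7SL was covered more densely than the rest of its gene in 223 of 457 cases, against 328 of 484 for Y copies.

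By position in GENCODE release 29, matched by gene ID, introns held 475 of 775 matched Y copies, 154 of 288 copies of 7SK and 335 of 592 of 7SL. Exons and introns of other genes were taken on either strand. A count was found for 68.2% of the intronic Y copies and for 63.1% of those between genes. For 7SL it was 67.2% and 59.6%, and for 7SK 61.7% and 60.0%. Exons held 9 copies of 7SK with 48.2% and 47.9% of the 7SK counts, nearly all of them at RN7SKP118.

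Few reads were counted at piRNA features inside the copies. The 103 such features, in 71 copies, held 2 and 2 R1 counts and 0 and 9 R2 counts in all in replicates 1 and 2. The counts of the 71 copies as a whole are not given here, so these values have no total to be set against.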

How the data were processed

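Raw counts of reads at each listed feature were deposited by the authors, 4 tables in all, R1 and R2 of each library. Bowtie2 2.3.5.1, bedtools 2.24.0 and the hg19 (GRCh37) build are named in the submitters' processing notes. How reads with several matches were treated, how strand was used and which alignment options were set is not stated in the notes or labels. Of 741091 listed features, 13 repeated lines were dropped.

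The members and gene lists were chosen with earlier results of these data known. Named copies were the 8 highest 7SL, 5 highest 7SK, 10 highest Y and 5 highest other members by mean R1 CPM, the 3 differing most between libraries in each direction, the 3 highest and 3 lowest in R2 over R1 with a mean of at least 100 counts, the parent genes, and overlapping features. RGL3, GALNT5, CDK15, GJA10, ANO9, CDH8, RN7SL529P, RN7SKP48, RN7SKP76, RN7SL687P, RN7SL173P, RN7SKP249, RN7SKP189, RN7SKP55, RN7SKP85, RN7SKP292 and RN7SKP187 were named after their values were seen.

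No conditions could be compared, there being 1 group. The split test used TMM factors of edgeR 4.0.16 or size factors of DESeq2 1.42.0 in R 4.3.3, a threshold of 0.05 and log2 ratios with 0.5 counts added. It was tested on simulated counts with counting error only and a known scaling ratio, which does not cover further variation between libraries. Identity came from global alignment in Biopython 1.88 (match 2, mismatch -1, gap open -3, gap extend -0.5). Windows of 20 bases were searched on the copy's own strand, chosen after the data were seen, with 15 and 25 bases as alternatives. The other tools were scipy 1.17.1, pandas 2.3.3, numpy 2.4.6 and matplotlib 3.10.9 under Python 3.11.15. The reads carry no molecular identifiers, so PCR duplicates count as molecules and intervals cover counting error only. Copies that share sequence with a parent or another copy have uncertain counts. The sequences of some copies and parents are not reported here.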

Additional observations from a re-analysis of the deposited data

How the results depend on the processing

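No paired analysis was possible because all libraries belong to the same group. Of 186 alternative values of the main results, 112 stayed within the bounds used (1 SD between replicates for shares, 1.5 times for counts, 0.1 for log2 values) and 74 did not. Of 180 for the CPM of named copies, 80 lay outside 1 SD, of which 55 were higher and 25 lower. No copy overlapped a tRNA feature, so leaving such copies out changed nothing. With 2 libraries, leaving 1 out moves a mean by less than 1 SD by construction. Such values are part of both tallies, which therefore overstate how stable the results were. Without 1 replicate, 285 to 416 copies of 7SL and 8 to 10 of the others had a count.

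As a percent of the library, 7SL copies took 0.0498 in R2, 0.0236 in the sum of both mates, 0.0895 without tRNA features and features overlapping one in the total, and 0.00246 without copies overlapping another feature. For 7SK copies these were 0.0319 in R2, 0.212 without tRNA in the total and 0.00769 without overlapping copies, with 0.0456 when the 10 highest features left the total and 0.0139 without RN7SKP118. For Y copies they were 0.0359 in R2, 0.0473 in the sum, 0.435 without tRNA, 0.0169 without overlapping copies, 0.0907 without the 10 highest features and 0.0484 without the highest copy. The others took 0.000975 without tRNA in the total and 0 without overlapping features. Y copies led in R1 under each of these settings and, by the mean of both libraries, 7SL copies led in R2.

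As a percent of copies and parents, 7SL copies were 28.5 in R2, 19.6 in the sum and 10.1 without the highest copy, 7SK copies were 37.9 in R2 and 36.1 without the highest, and Y copies were 75.3 without the highest. A mean of at least 10 counts left 38 copies of 7SL, 46 of 7SK, 187 of Y and 0 others. The highest copy's percent of its family was 38.4 in R2, 32.7 in the sum and 8.50 without overlapping copies for 7SL, 33.5, 41.8 and 26.4 for 7SK, and 4.37, 5.57 and 10.4 for Y.

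In the split between the libraries, total counts called 15221 features (81.3%) higher and 270 (1.44%) lower in replicate 2. R2 called 267 (1.504%) higher and 877 (4.94%) lower, and the sum called 1453 (6.63%) higher and 2283 (10.4%) lower. A minimum mean count of 1 called 1013 (2.50%) lower, and no minimum called 932 (1.19%) lower. For 7SL copies 34 of 38 were higher by total counts, against 81.3% of all features, 4 of 18 in R2 and 15 of 69 in the sum. None was lower by total counts, with a minimum mean count of 1 (342 tested) or with no minimum (459 tested). For 7SK copies 14 were higher and 1 lower of 46 by total counts, 0 higher and 3 lower of 18 in R2, and 9 of 179 lower with no minimum. For Y copies 5 were higher and 14 lower of 187 by total counts, and 1 higher and 41 lower of 75 in R2. The median log2 ratio of 7SL copies was 1.97 by total counts and 0.58 in R2. That of 7SK copies turned to 0.32 by total counts and was -0.25 in R2, -0.54 in the sum and -0.59 with a minimum of 1. That of Y copies was -0.0855 by total counts and -1.05 with a minimum of 1. Total counts differ from TMM by construction, as they do not centre on the median feature, and for the other settings the cause was not tested.

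Without the highest copy, R2 was 140% of R1 for 7SL copies, 65.5% for 7SK and 30.5% for Y. Among alternatives added after the data were seen, the share of Y counts with the RNY3 window was 56.0% for 15 bases, 43.3% for 25 bases and 47.4% without the highest copy holding it. The log2 ratio of summed 7SL copies by total counts was 1.86 without the highest copy and 2.01 without the 2 highest. Depth limits the copies under 10 counts, most of the members, for which only presence in a library is described.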
